A study of Mus musculus with 9 samples.

Results

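Taken here as MS4A genes of myeloid cells were 9 mouse paralogues: Ms4a4a, Ms4a4b, Ms4a4c, Ms4a4d, Ms4a6b, Ms4a6c, Ms4a6d, Ms4a7 and Ms4a8a. The 9 are a selected list. Ms4a3, a gene of granulocyte and monocyte precursors, is not among them, and Ms4a4b is known from T cells and natural killer cells. The members were chosen by name, with earlier results of these data known. A probe set was counted for a member where its platform gene symbol was that member's name. The array named 8 of the 9 through 15 probe sets, among 18193 genes and 45101 probe sets in all, and no probe set naming Ms4a4a was analysed here. The highest-mean probe set of a gene over all 9 arrays stood for that gene. On that basis 7 members passed the filter on dim genes and were tested, and Ms4a4d did not.

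The material was RNA of CD11b+ splenocytes from C57BL/6 mice, read on Affymetrix MOE430 arrays. The HighThreat group, called threat here, comprised 6 animals that had gone through repeated social threat, with 1 animal per array. The LowThreat group, called control, comprised 6 animals held without threat, combined by 2 into 3 pools with 1 array each. Cells of both groups were adherent splenocytes picked with magnetic beads for CD11b, an integrin that monocytes, macrophages, granulocytes and many natural killer cells carry. The labels call the product monocytes, but markers of other cells were measured in it too, as described further on. Neither age nor sex is given in the labels used here. All values are log2 expression, so a difference of 1 is a doubling.

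MS4A proteins are small membrane proteins that cross the membrane several times and resemble CD20, the product of Ms4a1. Several of them sit beside immune receptors and alter how those receptors signal or move, as the beta chain of the IgE receptor, Ms4a2, does in mast cells. In the mouse, Ms4a4a and Ms4a8a are known from alternatively activated macrophages, Ms4a7 and Ms4a6d from monocytes and macrophages, and Ms4a4b from T cells and natural killer cells. Most of the family lies in 1 gene cluster, which arose by repeated duplication.

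In the RefSeq annotation of mouse assembly GRCm38.p6 all 9 members lie on chromosome 19. Ms4a7, Ms4a4a, Ms4a4c, Ms4a4b, Ms4a6c, Ms4a6b, Ms4a4d and Ms4a6d follow each other in this order, with 1 other protein-coding gene, Gm8369, between Ms4a6c and Ms4a6b. Ms4a8a stands apart, between Ms4a18 and Ms4a20 on the other side of Ms4a1. RefSeq promoters, each running from 250 bases before to 50 bases after a start site, were held for 8 members, with 2 for Ms4a7. Local alignment of all 36 pairs of these 9 promoters picked out 2 pairs of close copies. Those of Ms4a4b and Ms4a4c matched at 229 of 301 aligned positions (76.1%, score 149.5), and those of Ms4a6b and Ms4a6c at 193 of 234 (82.5%, score 147.5). The other 34 pairs scored between 11.5 and 21.5. The 4 promoters of these pairs are shown. The genes of the first pair moved in opposite directions, and the second pair matched at the higher share of positions. Of the 2 Ms4a7 promoters 1 is shown too, as Ms4a7 is 1 of the 3 strongest risers. Ms4a6d and Ms4a8a rose more than Ms4a7. No promoter was held for Ms4a6d, and that of Ms4a8a, which had no motif match, is not shown. The promoters shown are printed 5′ to 3′ on the gene's own strand, and capitals mark the motif matches described after them.
Ms4a4b, chr19:11443308-11443607, plus strand: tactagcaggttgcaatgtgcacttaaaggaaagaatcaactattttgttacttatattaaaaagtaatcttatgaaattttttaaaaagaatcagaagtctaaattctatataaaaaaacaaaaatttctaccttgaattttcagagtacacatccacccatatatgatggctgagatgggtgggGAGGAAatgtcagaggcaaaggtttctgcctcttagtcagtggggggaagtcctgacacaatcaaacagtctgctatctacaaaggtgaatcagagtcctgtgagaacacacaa
Ms4a4c, chr19:11407411-11407710, plus strand: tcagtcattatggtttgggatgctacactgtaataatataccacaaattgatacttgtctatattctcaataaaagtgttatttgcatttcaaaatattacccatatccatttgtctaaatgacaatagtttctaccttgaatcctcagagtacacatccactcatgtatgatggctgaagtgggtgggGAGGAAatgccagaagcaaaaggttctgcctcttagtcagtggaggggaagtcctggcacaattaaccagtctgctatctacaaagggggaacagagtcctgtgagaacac
Ms4a6b, chr19:11518309-11518608, plus strand: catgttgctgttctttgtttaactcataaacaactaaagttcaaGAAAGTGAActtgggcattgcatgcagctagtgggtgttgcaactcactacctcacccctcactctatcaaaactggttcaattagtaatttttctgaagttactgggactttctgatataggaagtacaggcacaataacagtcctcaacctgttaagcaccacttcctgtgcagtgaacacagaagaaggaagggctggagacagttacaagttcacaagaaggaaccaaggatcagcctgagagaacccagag
Ms4a6c, chr19:11469118-11469417, plus strand: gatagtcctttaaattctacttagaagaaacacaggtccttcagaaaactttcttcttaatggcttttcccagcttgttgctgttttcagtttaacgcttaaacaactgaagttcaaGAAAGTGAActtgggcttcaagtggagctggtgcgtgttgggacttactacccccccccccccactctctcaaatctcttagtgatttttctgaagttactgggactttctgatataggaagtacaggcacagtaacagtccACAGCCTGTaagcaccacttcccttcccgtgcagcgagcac
Ms4a7, chr19:11336097-11336396, minus strand: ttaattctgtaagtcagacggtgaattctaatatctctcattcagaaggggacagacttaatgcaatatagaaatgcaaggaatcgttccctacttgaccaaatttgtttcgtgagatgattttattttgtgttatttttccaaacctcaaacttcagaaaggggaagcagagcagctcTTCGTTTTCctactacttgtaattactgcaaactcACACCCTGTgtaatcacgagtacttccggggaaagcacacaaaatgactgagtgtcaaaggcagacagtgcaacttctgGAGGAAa

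Short forms of 4 motifs were searched on both strands in these windows and in all 32851 RefSeq promoters of the same length. The interferon response form GAAANNGAA was found in 4 of the 9 member promoters, against 8.56% of all promoters. These were both promoters of Ms4a7 and those of Ms4a6b and Ms4a6c. The copies in Ms4a6b and Ms4a6c read GAAAGTGAA, inside the stretch that the pair shares, at positions -206 and -133 from the start site. The PU.1 form GAGGAA was found in 3 of 9, against 28.3% of all promoters. It lay at position -64 in Ms4a4b and -61 in Ms4a4c, again within their shared stretch. The glucocorticoid receptor form ACANNNTGT was found in 3 of 9, against 6.85%, namely in Ms4a6c and in both promoters of Ms4a7. The C/EBP form TTGCNNAA was found in 1 of 9, against 10.8%, in Ms4a4d. None of the matches overlapped another. They describe letters in a window and do not show binding. Members and motifs were chosen with earlier results of these data known, so the motif shares are descriptive only.

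Exposure to threat went with higher expression of 6 of the 7 tested members and lower expression of the seventh. Ms4a6d, Ms4a8a and Ms4a7 rose by 2.18-fold, 1.97-fold and 1.75-fold. Ms4a6c, Ms4a4c and Ms4a6b rose by 1.39-fold, 1.22-fold and 1.21-fold. Ms4a4b fell by 0.50 on the log2 scale. All 7 passed limma's test at a Benjamini-Hochberg adjusted p under 0.05 over 13078 genes, where 45.8% of all tested genes passed. Higher values in threat were called in 23.8% of all genes and lower values in 22.0%, so a call in this comparison is common. A rise of at least 1.5-fold, a rule set after the data were seen, was found in 3 of the 7 members and in 5.31% of all genes. The median difference of the 7 was 0.472, against 0.0293 over all tested genes. It rests on the probe set chosen for Ms4a6c. The median was 0.284 with that gene's other probe set and 0.267 with the mean of each gene's probe sets. Because the members were chosen with earlier results of these data known, these shares and medians are descriptive only.

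Threat and control values did not overlap in any of the 7 tested members. The 6 threat values all lay above the 3 control values in 6 members, as they did in 21.5% of all tested genes. They all lay below them in Ms4a4b, as in 20.3% of all tested genes. The spread within groups was ordinary for these arrays. The median SD of the 7 members was 0.0832 between threat animals and 0.0878 between control pools, against 0.0846 and 0.0832 over all tested genes.

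**Figure D1:**
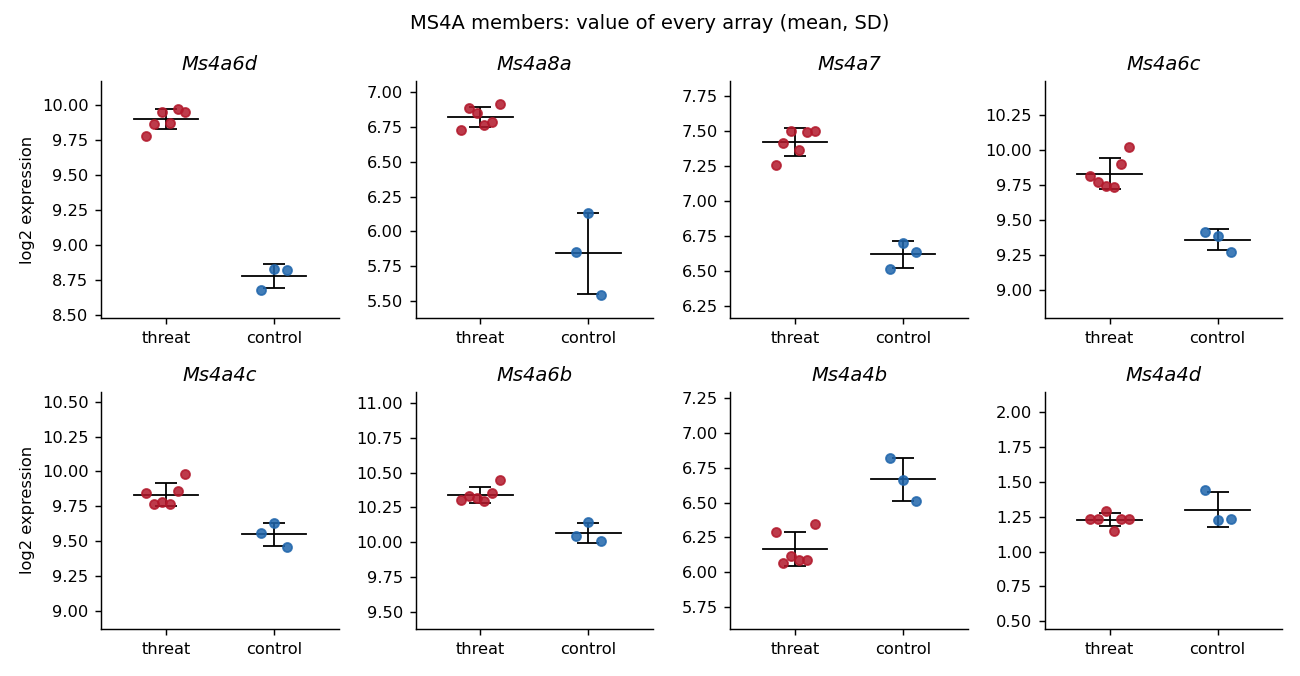
Log2 expression of the 8 measured members on every array, threat animals (red, n = 6) left of control pools (blue, n = 3), with the mean and SD as black lines. Every panel spans the same log2 range, so heights of differences compare between panels. Threat values lie above control values for 6 members, below them for Ms4a4b, and among them for Ms4a4d.

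Ms4a6d, a macrophage gene whose product has been reported in mice to pair with the inhibitory receptor VSIG4, rose most. Its values ran from 9.78 over a median of 9.91 to 9.97 in threat animals, against 8.67, 8.83 and 8.82 in control pools 1-2, 3-4 and 5-6. Every threat animal stood at least 0.95 above every control pool. The difference was 1.12 (SE 0.0575, adjusted p = 1.16e-08 from limma). The probe set used carries the suffix _s_at, which the maker gives to probe sets that match transcripts of more than 1 gene. A further probe set without that suffix gave 9.42 ± 0.0747 in threat animals and 8.27 ± 0.036 in control pools (SD, n = 6 and 3), a difference of 1.15 (SE 0.0541, adjusted p = 5.46e-08 over 27022 probe sets). The remaining one read 1.12 ± 0.117 and 1.09 ± 0.0373 (SD), far under the filter value of 2.66, and was not tested.

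Ms4a8a, known in the mouse from alternatively activated and tumour-associated macrophages, rose by 0.98 (SE 0.0991, adjusted p = 4.51e-06 from limma). Threat animals read between 6.73 and 6.91 with a median of 6.82, against 5.86, 6.13 and 5.54 in the 3 control pools. The threat animals lay close together (SD 0.0732), while the control pools spread 4.00 times as widely (SD 0.293), the widest control spread among the tested members. The limma fit takes the same spread for both groups, so its SE and adjusted p may overstate the precision for this gene. The size of the rise varied with the pools and ran from 0.83 without pool 5-6 to 1.12 without pool 3-4. The array holds 1 probe set for this gene.

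Ms4a7, a marker of monocyte-derived and tissue macrophages, had values between 7.26 and 7.51 in threat animals, with a median of 7.46, against 6.52, 6.70 and 6.64 in control pools. Threat animal 1 was the lowest of the 6 and still lay 0.55 above the highest pool. The difference was 0.81 (SE 0.0661, adjusted p = 7.32e-07 from limma). The dimmer second probe set, close to the filter value, gave 2.81 ± 0.194 in threat animals and 2.48 ± 0.272 in control pools (SD). Its difference of 0.34 had a 95% interval from 0.0482 to 0.627 and did not pass (adjusted p = 0.0627).

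Ms4a6c, a monocyte and macrophage gene, gave opposite answers through its 2 probe sets. The bright one, which stands for the gene by the rule, read between 9.74 and 10.02 in threat animals, with a median of 9.79, against 9.42, 9.39 and 9.27 in control pools. Its difference was 0.47 (SE 0.0677, adjusted p = 9.1e-05 from limma), and the groups did not overlap. The dim one read between 4.60 and 4.93 in threat animals, with a median of 4.79, against 5.82, 6.15 and 5.86 in control pools. There every threat animal lay below every pool, and the difference was -1.16 (SE 0.0861, adjusted p = 1.48e-06 over 27022 probe sets). The mean of both probe sets fell by 0.345 (adjusted p = 0.000167). The direction of Ms4a6c is therefore that of the bright probe set only. Which transcript the dim one reads was not tested.

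Ms4a6b, a close paralogue of Ms4a6c that mouse T cells express beside monocytes, rose little. Threat animals read between 10.30 and 10.45, with a median of 10.32, against 10.04, 10.15 and 10.01 in control pools. The gap between the lowest threat animal and the highest pool was 0.15. The difference was 0.27 (SE 0.0514, adjusted p = 0.000761 from limma). A dimmer probe set gave nearly the same difference, 0.26, but with a wider interval, from 0.0387 to 0.482, and did not pass (adjusted p = 0.0611).

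Ms4a4c, a paralogue of Ms4a4a and Ms4a4b in lymphoid and myeloid cells, rose to a similar extent. Its values were between 9.77 and 9.98 in threat animals, with a median of 9.81, against 9.56, 9.63 and 9.46 in control pools. The difference was 0.28 (SE 0.06, adjusted p = 0.00176 from limma). The probe set has the suffix _x_at, given where some probes resemble other sequences. The other probe set, with the suffix _s_at, differed by 0.16 with a 95% interval from 0.026 to 0.29, overlapped between groups and did not pass (adjusted p = 0.057).

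Ms4a4b, known in mice from T cells and natural killer cells and reported to associate with the receptor GITR, was the member that fell. Its values ran from 6.07 over a median of 6.10 to 6.35 in threat animals, against 6.82, 6.66 and 6.51 in control pools. The highest threat animal, number 6, lay 0.16 below the lowest pool. The difference was -0.50 (SE 0.0811, adjusted p = 0.000246 from limma), a 1.41-fold lower level. Its second probe set, at 2.36 ± 0.15 in threat animals and 2.41 ± 0.115 in control pools (SD), lay under the filter and was not tested. With the mean of both probe sets the difference was -0.273.

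Ms4a4d read 1.23 ± 0.0454 in threat animals and 1.30 ± 0.124 in control pools (SD, n = 6 and 3), well under the filter value of 2.66. The groups overlapped, with 1.15 to 1.29 in threat animals and 1.44, 1.22 and 1.24 in control pools. With no filter the difference was -0.0708 (SE 0.0585, adjusted p = 0.401 from limma). At this signal a level cannot be told from background.

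**Figure D2:**
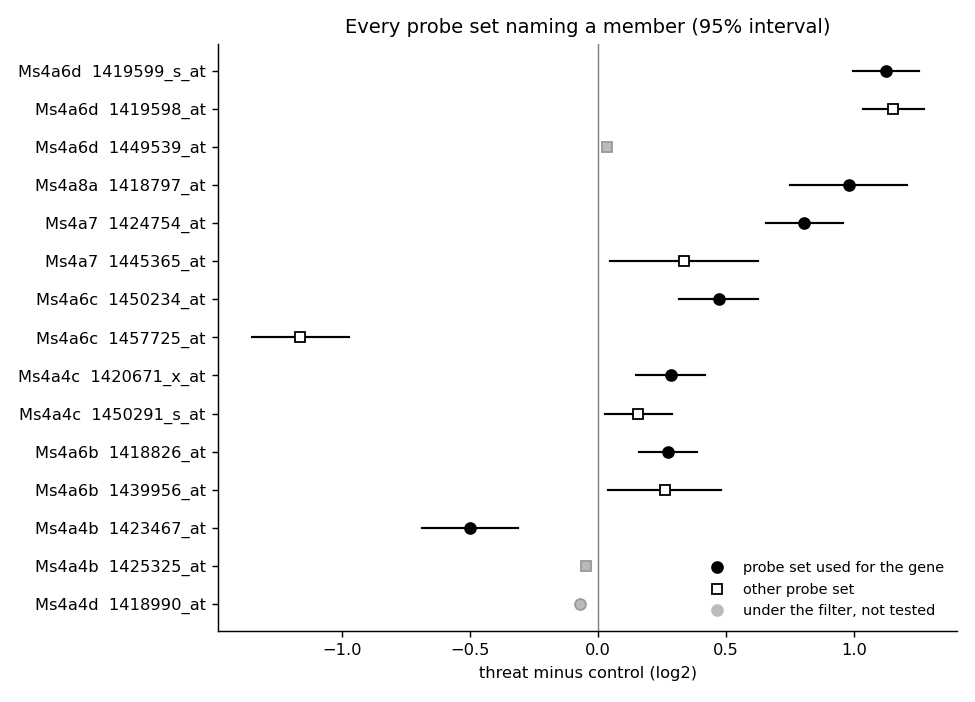
Threat minus control on the log2 scale for all 15 probe sets that name a member, with 95% intervals from the fit over 27022 probe sets. Filled circles are the probe sets used, open squares the others, and grey symbols lie under the filter. The tested probe sets of a gene point the same way in Ms4a6d, Ms4a7, Ms4a4c and Ms4a6b, and in opposite directions in Ms4a6c, at 0.47 and -1.16.

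The members differed among themselves in the size of their change. Within each array the log2 values of 2 members were subtracted, and the result was compared between groups with an exact two-sided permutation test that runs through the 84 ways to split 9 arrays into 6 and 3. Of the 21 pairs of tested members, 18 differed (adjusted p = 0.0139 over the 21 pairs, exact p = 0.0119, the smallest that 84 ways allow). Such differences were common on these arrays, since the log2 difference did not overlap between threat and control in 48.4% of all pairs of tested genes. In the 6 pairs with Ms4a4b the outcome was fixed beforehand. All threat values of Ms4a4b lay below the pools, and those of the other tested members lay above. These 6 pairs add nothing to the members' own differences. The 6 pairs with Ms4a6c rest on its bright probe set. The 3 pairs that were not called were neighbours in size. Ms4a6d exceeded Ms4a8a by 0.145 (exact permutation p = 0.274, adjusted 0.288), Ms4a7 minus Ms4a8a came to -0.174 (exact permutation p = 0.167, adjusted 0.184), and Ms4a4c and Ms4a6b differed by 0.0107 (exact permutation p = 0.714, adjusted 0.714). The wide spread of Ms4a8a in control pools enters the first 2 of these. Among the called pairs, Ms4a6d rose more than Ms4a7 by 0.319. Ms4a6c minus Ms4a7 came to -0.334, and Ms4a6b minus Ms4a6c to -0.198.

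Both pairs of paralogues with alike promoters were among the 18. For Ms4a4b and Ms4a4c, adjacent on the chromosome, the difference of the differences was -0.784 with opposite signs. All threat values lay below the pools for Ms4a4b and above them for Ms4a4c. The exact permutation p of 0.0119 (adjusted 0.0139) was therefore fixed beforehand and adds nothing to the genes' own differences. Ms4a6b and Ms4a6c differed from control by 0.274 and 0.472, the second through its bright probe set, while its dim one gave -1.16.

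**Figure D3:**
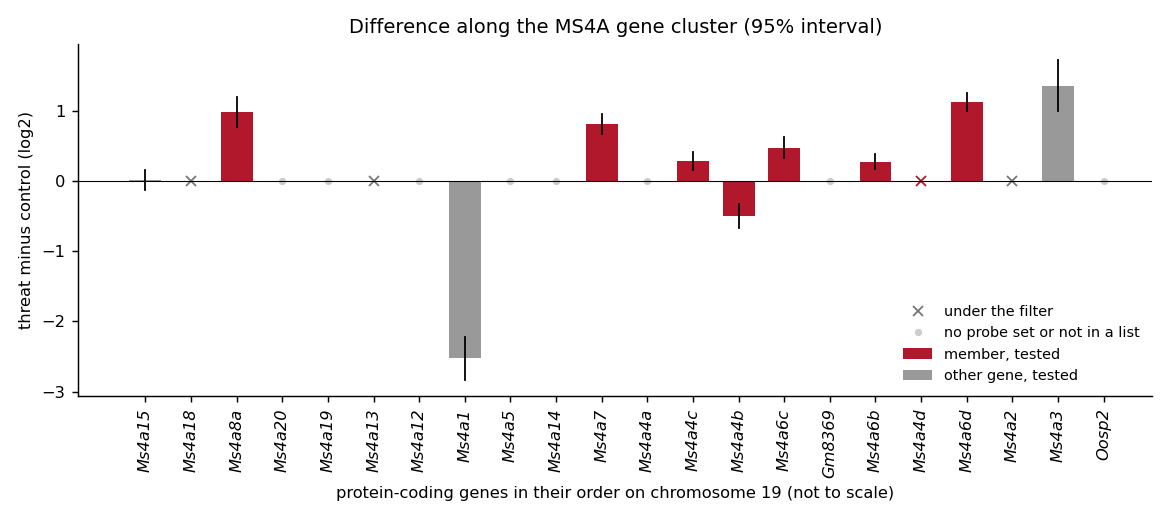
Threat minus control on the log2 scale for genes in their order on chromosome 19, with 95% intervals. Red bars are tested members and grey bars other tested MS4A genes. The bars of adjacent genes point both ways: Ms4a4c rose by 0.28 and its neighbour Ms4a4b fell by 0.50.

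Animal 6 had the highest value of the threat animals in 6 of the 7 tested members, against 20.4% of all tested genes. Animal 5 had it in the seventh, Ms4a6d. All members of an animal were read on the same array, so these counts are not independent. The lowest value came from animal 1 or animal 4 in 3 members each, and from animal 2 in 1. Relative to the control mean, animal 6 stood at 0.661 for Ms4a6c, where the other 5 animals ran from 0.376 to 0.54. It stood at 0.433 for Ms4a4c, where the others ran from 0.216 to 0.31, and at -0.316 for Ms4a4b, where the others ran from -0.597 to -0.377. The margin was narrow for Ms4a7, where animal 6 stood at 0.887 and the next at 0.881, and for Ms4a8a, at 1.071 against 1.046. No call of a member was lost when any animal or pool was left out.

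Of the 11 other genes listed for the family and its TMEM176 relatives, 5 were tested, 3 rose and 1 fell. Of all tested genes 23.8% were called higher and 22.0% lower. Ms4a1, the B cell gene of CD20, read 5.51 ± 0.29 in threat animals and 8.04 ± 0.104 in control pools (SD) and had the smallest p. Ms4a3, a gene of granulocyte and monocyte precursors, rose by 1.36 (SE 0.167, adjusted p = 2.49e-05 from limma). Tmem176b and Tmem176a, membrane proteins of dendritic cells and macrophages, rose by 0.37 (adjusted p = 0.000268) and 0.20 (adjusted p = 0.0153). The 3 probe sets of Tmem176a did not move together, at 0.20, 0.50 and -0.06. Ms4a15 differed by 0.0155 (adjusted p = 0.869, 95% interval from -0.127 to 0.158). Ms4a2, Ms4a10, Ms4a13 and Ms4a18 lay under the filter, with Ms4a2 at 1.75 ± 0.0912 in threat animals and 1.57 ± 0.2 in control pools (SD).

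**Figure D4:**
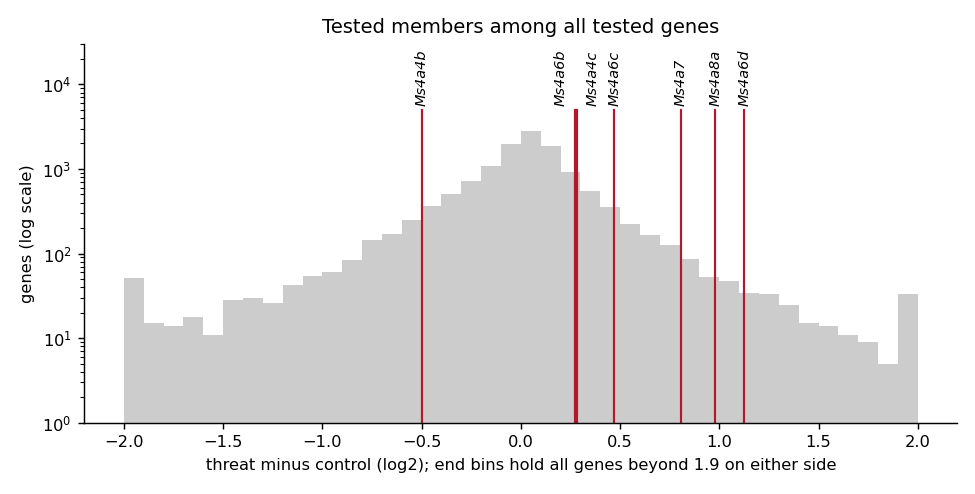
Distribution of threat minus control (log2) over the 13078 tested genes, as grey bars on a log count axis, with a red line for each tested member. Ms4a6d, Ms4a8a and Ms4a7 lie in the right tail between 0.81 and 1.12, and Ms4a4b lies at -0.50.

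Reported partners of MS4A proteins moved both ways. Of 8 listed genes, 6 were tested, 3 rose and 2 fell, with a median of 0.141. Beside this count and those of the lists that follow stand 23.8% of all tested genes called higher and 22.0% lower. Trem2, a lipid-sensing receptor of macrophages whose shedding human MS4A4A affects, had the smallest p. It read 5.98 ± 0.0591 in threat animals and 4.76 ± 0.0457 in control pools (SD) and rose by 1.22 (SE 0.0497, adjusted p = 1.81e-09 from limma). Its signalling adaptor Tyrobp, the brightest of the list, rose by 0.21 (adjusted p = 0.0018), and the adaptor Fcer1g by 0.44 (adjusted p = 3.32e-06). Clec7a, which encodes the glucan receptor dectin-1 that mouse MS4A4A accompanies, fell by 0.54 (SE 0.0549, adjusted p = 4.79e-06). Tnfrsf18, the gene of GITR, fell by 0.84 (SE 0.0631, adjusted p = 3.09e-07). Nlrp3, of the inflammasome, differed by 0.0682 (adjusted p = 0.317). Vsig4 lay under the filter in these cells.

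Of 18 listed interferon-stimulated genes 15 were tested, 11 rose and 1 fell, with a median of 0.49. Usp18, a brake on interferon signalling, rose by 1.15 (SE 0.0636, adjusted p = 2.19e-08 from limma) and the antiviral gene Rsad2 by 0.37 (SE 0.0611, adjusted p = 0.000278). Genes of alternative activation and of the glucocorticoid response moved in both directions. Of 14 tested, 2 rose and 9 fell, with a median of -0.314. Tsc22d3, a glucocorticoid-induced gene, fell by 1.68 (SE 0.0775, adjusted p = 4.92e-09). The chitinase-like gene Chil3, the brightest of the list and also in the Ly6C-high monocyte list, rose by 0.74 (SE 0.0531, adjusted p = 2.09e-07). Mrc1, the mannose receptor, fell by 1.28 (SE 0.133, adjusted p = 5.83e-06).

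Markers of several cell types differed between the groups. Whether the make-up of the sorted cells differed, and its part in the members' changes, was not tested. In bulk RNA fewer cells of a type and less RNA per cell cannot be told apart. The counts of called markers stand beside 23.8% of all tested genes called higher and 22.0% called lower. Natural killer cell markers fell in 8 of 9 tested genes, and their mean log2 level was 3.94 to 4.15 in threat animals against 5.52 to 5.69 in control pools. Klrd1, a receptor of these cells and both the brightest and the smallest p of the list, fell by 1.52. T cell markers fell in 4 of 7, with mean levels of 3.96 to 4.08 against 4.33 to 4.43, and 5 of the 12 listed were not tested. Cd5, an inhibitory coreceptor, had the smallest p among them at -0.96, and the coreceptor Cd4 was the brightest at -0.41.

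Markers of myeloid cells moved in both directions in the same arrays. Genes of granulocytes and their precursors rose in 10 of 11. Mean levels were 9.74 to 10.2 in threat animals against 8.26 to 8.41 in control pools. The collagenase Mmp8 had the smallest p, at 2.76, while Prtn3 rose most, by 3.48. S100a9, a calprotectin chain and the brightest, rose by 0.47. Ly6C-high monocyte genes rose in 4 of 6, at 9.59 to 9.71 against 8.78 to 8.96, led by the haptoglobin gene Hp at 1.82, and none fell. Ly6C-low monocyte genes rose in 2 of 8 and fell in 6, at 7.95 to 8.14 against 8.41 to 8.52, with Cd36 at -1.68 and Treml4, the brightest, at 0.47. Red pulp and marginal zone macrophage genes rose in 3 of 15 and fell in 7, at 6.91 to 7 against 7.25 to 7.36, with Hpgd at -2.32 and Csf1r, the brightest, at 0.19.

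Markers of B cells and dendritic cells were mostly lower, and most mast cell and basophil genes lay under the filter. B cell genes fell in 8 of 9, at 4.39 to 4.74 in threat animals against 6.40 to 6.63 in control pools, with Fcrla at -2.02 and Cd79a, the brightest, at -2.31. Dendritic cell genes fell in 8 of 9, at 5.21 to 5.27 against 6.24 to 6.35, with the homing receptor Ccr7 at -1.89 and the integrin Itgax, the brightest, at -1.01. Of 5 mast cell and basophil genes, Cpa3, Fcer1a and Cd200r3 lay under the filter. Of the 2 tested, Hdc, which granulocytes also express, rose by 0.50. Mcpt8 differed by -0.131 and was not called (adjusted p = 0.362 from limma). Of the control genes read for RNA integrity, beta-actin differed slightly between the groups and Gapdh showed no such difference, with neither p adjusted. The log2 difference of 3′ and 5′ beta-actin control probe sets was 0.356 ± 0.034 in threat animals and 0.472 ± 0.063 in control pools (SD, exact permutation p = 0.0238), while that of Gapdh was -0.071 ± 0.088 and -0.0353 ± 0.052 (exact permutation p = 0.512).

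The genes whose profile over the 9 arrays was most like that of a member were found by the root mean square difference of log2 values, each gene centred on its own mean. For Ms4a6d these were Slc2a6, a sugar transporter gene, at 0.0555, Tgfbi, which encodes a matrix protein of macrophages, at 0.0609, and Zdhhc6 at 0.0644. They rose by 1.11, 1.15 and 1.11. For Ms4a4b they were Timm29 at 0.0651, Nudt9 at 0.0682 and Acot2 at 0.072, with differences of -0.44, -0.54 and -0.48. For Ms4a6b, the member with the smallest difference, they were Tmem165 at 0.0231, Cit at 0.027 and Nup62 at 0.0288. No MS4A gene was among the 3 nearest of any of the 7 tested members. With 2 groups and 9 arrays this measure mostly finds genes with the same difference between groups.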

How the data were processed

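Expression of CD11b+ splenocytes was measured on 9 Affymetrix MOE430 arrays. The deposited table gives log2 expression of each probe set on each array. Per the submitters' processing notes the authors used RMA, whose version is not given in the sources used here. The log base was inferred from the range, 0.607 to 13.567, with array medians from 3.19 to 3.22. RMA equalises distributions, so a difference in total RNA per cell is not seen, and it gives no detection call. The number of arrays limits the precision.

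Probe sets were named from the platform annotation, with 34741 of 34945 single-gene probe sets matched to RefSeq (GRCm38.p6) by Entrez number. For each gene the probe set with the highest mean was kept, and genes with a mean of at least 2.66, the 40th percentile of probe sets, were tested: 13078 of 18193. Threat minus control was fitted with limma 3.58.1 (lmFit, eBayes) in R 4.3.3 and tested two-sided, with Benjamini-Hochberg adjustment over all genes at 0.05. Other probe sets come from the same fit over 27022 probe sets. SE is limma's moderated standard error. The limma fit was also run on simulated data with the same spread in both groups. That run does not show how the fit behaves when single animals are set against pools. The labels name single animals in the threat group and pools in the control group, so p-values measure the spread between these.

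Promoters were aligned locally in pairs (match 1, mismatch -1, gap opening -2, extension -0.5). Members, lists and motifs were chosen with earlier results of these data known. The rule for named genes takes all members, the listed relatives and the 3 genes most like a member. It also takes the gene with the smallest p and the brightest gene of each list. Mrc1, Fcer1g, Clec7a, Tnfrsf18, Nlrp3, Tmem176a, Ms4a3, Ms4a15, Prtn3 and Mcpt8 were added to it from the lists. A rise of at least 1.5-fold was added as a call rule after the data were seen. Alternatives covered the filter, the probe set per gene, scaling, limma's settings, weights, averaging, a replicate block and leaving out each array.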

Additional observations from a re-analysis of the deposited data

How the results depend on the processing

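Each of the 7 tested members kept its direction and its call under all 20 alternatives applied to every gene, with the exception of Ms4a6c. When a gene's probe sets were averaged, Ms4a6c fell by 0.345 (adjusted p = 0.000167), so that 2 members were lower in threat in place of 1, and 5 were higher in place of 6. Under the same averaging Ms4a7 came to 0.571, under 1.5-fold, so that 2 members in place of 3 rose at least 1.5-fold. The dim probe set of Ms4a6c alone gave -1.16. Medians of the members under these settings were computed after the data were seen. The other probe sets of Ms4a4c (0.158), Ms4a6b (0.26) and Ms4a7 (0.337) kept the direction and lost the call. Rescaling by quantile normalization or median centring turned no member's direction. Over all alternatives, genes higher in threat numbered 2610 to 3372 and genes lower 2524 to 2983. Leaving out 1 animal or pool gave 6 higher members and 1 lower each time, with Ms4a8a between 0.83 and 1.12 and Ms4a4b between -0.576 and -0.422.

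The numbers of threat animals and control pools share no litter, cage or day in the labels. Deviations from the group means correlated at 0.0942, -0.0997 and -0.0161 between a pool and the threat animals of its numbers. With the numbers as a replicate block 3085 genes were higher and 2860 lower, and the block changed no call of a member. Averaging threat animals by number, 3 against 3, also left 6 members higher and 1 lower. No member's 6 threat values held an outlier by Dixon's criterion, over 12 tested probe sets. No RNA was hybridised more than once here, so technical spread is not known.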
